A study of Mus musculus with 2 samples.

Results

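The 10 genes described here encode apolipoproteins, the protein components that shape, carry and target the lipid particles of blood plasma: Apoa1, Apoa2, Apoa4, Apoa5, Apob, Apoc1, Apoc2, Apoc3, Apoe and Apoh. They were taken by symbol from a table of 36771 gene rows, and each symbol had 1 row. The table holds liver RNA of BALB/c mice aged 5 months, in 1 library labelled SRSF2-KO (genotype SRSF2-/-, deleted in the liver per the series' design text) and 1 library labelled WT. These are called the KO-labelled and the WT-labelled library below. The labels do not name the promoter that drove the deletion, the exons deleted or the number of mice behind a library. With 1 library per genotype, none of the differences below could be tested or checked in replicates.

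Liver makes most of the apolipoproteins in plasma. Apolipoprotein B forms the backbone of very low density lipoprotein (VLDL), which carries triglyceride out of the liver, and apolipoproteins A-I and A-II make up most of the protein of high density lipoprotein (HDL). The small C proteins and apolipoprotein E move between particles: some switch on or hold back lipoprotein lipase, the enzyme that unloads triglyceride in the capillaries, and apolipoprotein E is a ligand of the receptors that clear remnants. In the mouse, Apoa1, Apoc3, Apoa4 and Apoa5 lie side by side on chromosome 9, and Apoe, Apoc1, Apoc4 and Apoc2 on chromosome 7. Apoa2 lies on chromosome 1, Apoh on chromosome 11 and Apob on chromosome 12.

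Values are FPKM (fragment counts divided by transcript length and by sequencing depth), as the authors deposited them, and levels of different genes are compared on this per-length scale. Steps of whole reads among low values put the depth near 23900000 fragments in the KO-labelled library and 19100000 in the WT-labelled library. The deposited values summed to 523254 and 666262 FPKM in the KO-labelled and the WT-labelled library. Srsf2, which codes for a splicing factor of the SR protein family, stood at 45.3 FPKM in the KO-labelled library and 38.2 FPKM in the WT-labelled library. The mRNA level of the targeted gene thus did not follow its label. A value per gene does not show which exons or cells its reads came from, so it cannot tell whether the deletion took place. Of 12 hepatocyte markers, 11 were present and all 11 lay lower in the KO-labelled library (10 of them after rescaling to TPM, with equal totals over all rows), from log2 ratios of -1.72 for Pck1 and -1.26 for Tdo2 to -0.41 for Hnf4a and -0.14 for Asgr2. As deposited, 84.2% of all rows that reached 100 FPKM in either library, as these 11 did, were also lower. The twelfth, Alb, which codes for albumin, was listed at 0 FPKM in both libraries. A 0 in this table can therefore be a failed estimate.

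The upstream sequences of 5 members are shown here because their genes are close neighbours whose values parted between the libraries: on chromosome 9, Apoa4 was higher and Apoa1 and Apoa5 were lower in the KO-labelled library, and on chromosome 7 Apoc2 was level while Apoe and Apoc1 were lower, all as deposited. The sequences are the 250 bases before the RefSeq start site (build GRCm38.p6, whereas mm9 is named for the deposited values), read 5′ to 3′ on the gene's own strand. Windows were found for 8 of the 10 members, and not for Apoc1 or Apoc3. Capitals mark exact matches, on either strand, to TATAAA (the TATA box), CACGTG (the E-box), AGGTCA (an arm of nuclear receptor sites), CAAAGTCCA (the core bound by HNF4A) or TGACG (an arm of cAMP response elements).
Apoa1, chr9:46228380-46228629, plus strand: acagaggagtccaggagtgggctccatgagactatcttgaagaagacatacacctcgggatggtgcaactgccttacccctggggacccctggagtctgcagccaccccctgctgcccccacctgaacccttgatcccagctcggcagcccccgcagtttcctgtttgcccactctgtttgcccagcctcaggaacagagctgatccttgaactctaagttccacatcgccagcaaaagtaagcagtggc
Apoa4, chr9:46240594-46240843, plus strand: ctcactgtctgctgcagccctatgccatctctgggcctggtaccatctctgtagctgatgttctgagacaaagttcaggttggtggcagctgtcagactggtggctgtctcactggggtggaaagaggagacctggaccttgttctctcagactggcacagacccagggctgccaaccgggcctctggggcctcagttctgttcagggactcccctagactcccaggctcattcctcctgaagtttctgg
Apoa5, chr9:46268383-46268632, plus strand: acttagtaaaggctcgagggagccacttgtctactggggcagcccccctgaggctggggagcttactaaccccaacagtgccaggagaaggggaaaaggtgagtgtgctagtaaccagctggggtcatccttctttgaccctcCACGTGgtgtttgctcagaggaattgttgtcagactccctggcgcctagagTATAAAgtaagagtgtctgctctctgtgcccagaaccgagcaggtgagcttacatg
Apoe, chr7:19699189-19699438, minus strand: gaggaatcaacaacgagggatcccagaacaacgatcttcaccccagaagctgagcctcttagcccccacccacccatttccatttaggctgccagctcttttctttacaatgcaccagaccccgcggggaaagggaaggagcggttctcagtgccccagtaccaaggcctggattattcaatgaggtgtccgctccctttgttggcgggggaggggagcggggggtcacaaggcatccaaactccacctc
Apoc2, chr7:19677942-19678191, minus strand: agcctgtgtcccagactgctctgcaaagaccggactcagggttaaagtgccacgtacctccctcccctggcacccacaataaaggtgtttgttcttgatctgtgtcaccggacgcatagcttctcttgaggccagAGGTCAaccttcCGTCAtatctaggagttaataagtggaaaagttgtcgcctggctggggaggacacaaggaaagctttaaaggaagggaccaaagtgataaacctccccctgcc

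The Apoa5 window held TATAAA, from 56 to 51 bases before the start, and CACGTG, from 107 to 102 bases before it. The Apoc2 window held AGGTCA, from 115 to 110 bases before the start, and CGTCA (the reverse complement of TGACG), from 103 to 99 bases before it. The Apoa1, Apoa4 and Apoe windows held none of these 5 exact strings. Over all 32851 mouse windows of this length, 12.4% held TATAAA, 6.02% CACGTG, 14.0% AGGTCA, 0.384% CAAAGTCCA and 17.8% TGACG. None of the 5 motifs overlapped another in these windows. Looser versions of each motif were not searched.

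Apolipoprotein mRNAs were among the most abundant in both libraries, and as deposited most of them were moderately lower in the KO-labelled library. Their median log2 ratio was -0.47 as deposited and -0.13 under TPM scaling. With the median ratio of rows of at least 100 FPKM (abundant rows) set to 1 it was -0.068, with Apoa1, Apoc3 and Apoe at 0.01, -0.03 and -0.10. The summed level of the 10 genes was 48250 FPKM in the KO-labelled library and 70834 FPKM in the WT-labelled library, a ratio of 0.681. This was 9.22% of all FPKM in the KO-labelled library and 10.6% in the WT-labelled library. These shares do not depend on how the libraries were scaled against each other, although both totals lack Alb. The totals also differ in Serpina1b, listed at 2257 FPKM in the KO-labelled library and 0 in the WT-labelled library. In bulk liver RNA, fewer cells of a type and less RNA per cell cannot be told apart.

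Differences are given as log2((KO + 1)/(WT + 1)) of FPKM, so a value below 0 is a lower level in the KO-labelled library. All 10 genes had at least 1 FPKM, and 8 of them had log2 ratios below 0, with a median of -0.47. Among all 11428 rows that reached 1 FPKM in either library, 53.9% lay below 0 and the median was -0.04. Among the 833 rows that reached 100 FPKM in either library the share was 84.2% and the median -0.40, and 9 of the 10 apolipoproteins fall in that set (all but Apoa4), 8 of them below 0. The count below 0 was thus near that of abundant mRNAs in general. As deposited, 0 of the 10 were at least 2-fold lower, against 3.22% of all rows and 12.2% of the abundant rows. Likewise 0 of the 10 were at least 2-fold higher, against 5.49% and 4.08% (under TPM scaling Apoa4 passed this fold, with a log2 ratio of 1.02).

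**Figure D1:**
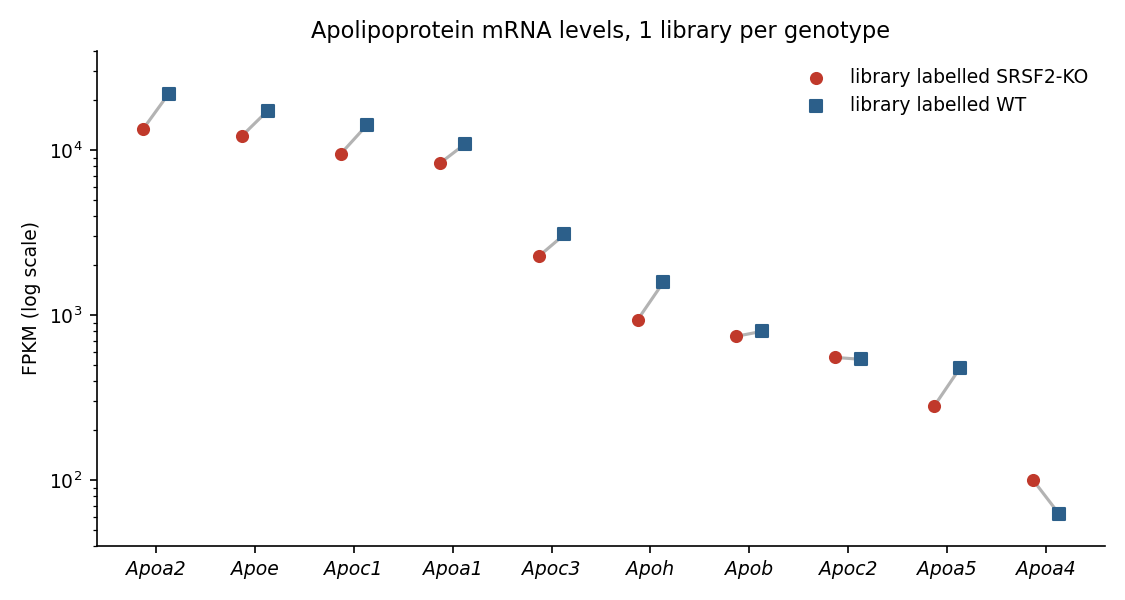
FPKM of the 10 apolipoprotein genes on a log axis, ordered by level in the WT-labelled library, with circles for the KO-labelled and squares for the WT-labelled library and a line joining the pair. The circle lies below the square for 8 genes, level with it for Apoc2 (554 against 539 FPKM) and above it for Apoa4 (99.6 against 62.4 FPKM); under TPM scaling Apob is also higher in the KO-labelled library.

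The genes of the HDL proteins were both lower in the KO-labelled library as deposited, Apoa2 by more than Apoa1 (Apoa1 reached a log2 ratio of 0.01 when the median of the abundant rows was set to 1). Apoa2, which codes for the second protein of HDL, stood at 13384 FPKM in the KO-labelled library and 21955 FPKM in the WT-labelled library. It was the 4th most abundant row of the table in the KO-labelled library and the 2nd in the WT-labelled library. Its log2 ratio was -0.71, and the ratio of 0.610 had a 95% exact (Clopper-Pearson) interval of 0.605 to 0.614, from estimated reads and covering counting error only. Over the 10 genes the estimates ran from 3168 to 197100 reads in the KO-labelled library and from 1996 to 223953 reads in the WT-labelled library, so counting error was small for each. Apoa1, the main HDL protein and the activator of the cholesterol-esterifying enzyme LCAT, stood at 8305 FPKM in the KO-labelled library and 10936 FPKM in the WT-labelled library. Its log2 ratio of -0.40 lay close to the median of the abundant rows, and 409 of those 833 rows lay higher. Within a library, the Apoa1 to Apoa2 ratio was 0.621 in the KO-labelled library and 0.498 in the WT-labelled library.

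Apoe, the ligand for remnant uptake, stood at 12182 FPKM in the KO-labelled library and 17320 FPKM in the WT-labelled library (ranks 5 and 3 in the table). Apoc1, which codes for a small exchangeable protein, lies next to Apoe and stood at 9499 FPKM in the KO-labelled library and 14092 FPKM in the WT-labelled library. Their log2 ratios were -0.51 for Apoe and -0.57 for Apoc1. These neighbours kept nearly the same proportion, with an Apoc1 to Apoe ratio of 0.780 in the KO-labelled library and 0.814 in the WT-labelled library. Apoe is also made by macrophages, whose markers split: of 16, 8 were higher and 8 lower in the KO-labelled library (10 and 6 under TPM scaling), and they had a median log2 ratio of 0.14 and summed to 311 FPKM in the KO-labelled library and 269 FPKM in the WT-labelled library. The part of macrophages in the Apoe values was not tested.

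Among the proteins that act on lipoprotein lipase, the cofactor was level between the libraries as deposited and the inhibitor and Apoa5 were lower in the KO-labelled library (Apoc2 had a log2 ratio of 0.39 under TPM scaling). Apoc2, the obligate cofactor of the lipase, stood at 554 FPKM in the KO-labelled library and 539 FPKM in the WT-labelled library, a log2 ratio of 0.04. Its counting interval for the ratio, 0.990 to 1.07, includes 1. Apoc3, which inhibits the lipase and remnant uptake, stood at 2268 FPKM in the KO-labelled library and 3078 FPKM in the WT-labelled library, a log2 ratio of -0.44. Apoa5, which lowers plasma triglyceride and is known to favour the lipase, stood at 281 FPKM in the KO-labelled library and 478 FPKM in the WT-labelled library. At -0.76 its log2 ratio was the lowest of the 10, and the ratio of 0.589 had a counting interval of 0.563 to 0.617. Within a library, where scaling cancels, the Apoc2 to Apoc3 ratio was 0.244 in the KO-labelled library against 0.175 in the WT-labelled library. The Apoa5 to Apoc3 ratio was 0.124 in the KO-labelled library against 0.155 in the WT-labelled library.

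Apob, the structural protein of VLDL, was close to level as deposited, at 744 FPKM in the KO-labelled library and 797 FPKM in the WT-labelled library, with a log2 ratio of -0.10 that turned to 0.19 with sums made equal outside the 50 most abundant rows and 0.25 under TPM scaling. The Apob to Apoe ratio was 0.0611 in the KO-labelled library and 0.0460 in the WT-labelled library. Apoh, which codes for beta-2-glycoprotein I, a phospholipid-binding plasma protein, stood at 935 FPKM in the KO-labelled library and 1579 FPKM in the WT-labelled library. Its log2 ratio of -0.76 lay beside that of Apoa5, and 177 of the 833 abundant rows lay lower.

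Apoa4 was higher in the KO-labelled library under all 5 scalings. It codes for a protein of chylomicrons and HDL that is made mainly by the intestine and in smaller amounts by mouse liver. It was the least abundant of the 10, at 99.6 FPKM in the KO-labelled library and 62.4 FPKM in the WT-labelled library, a log2 ratio of 0.67 with a counting interval of 1.51 to 1.69 for the ratio. Of the 11428 rows, 1154 lay higher. The ratio of Apoa4 to its neighbour Apoa5 was 0.354 in the KO-labelled library and 0.131 in the WT-labelled library. Of 14 enterocyte markers, 13 were in the table and 10 of them were under 1 FPKM in both libraries, with Lct, Sis, Alpi, Cdx1, Cdx2 and Muc2 listed at 0. The 3 measured ones, Fabp2, Anpep and Slc5a1, summed to 60.8 FPKM in the KO-labelled library and 111 FPKM in the WT-labelled library. Fabp2 and Anpep made up nearly all of this sum and were lower in the KO-labelled library. Slc5a1 was higher, at 1.48 FPKM in the KO-labelled library and 0.196 FPKM in the WT-labelled library. The part of enterocytes in the Apoa4 values was not tested.

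The Apoa4 value could also hold reads of an overlapping gene. In GENCODE M21, Gm10680 runs antisense to Apoa4 and overlaps its exons. Gm10680 was listed at 107 FPKM in the KO-labelled library and 66.9 FPKM in the WT-labelled library. The Apoa4 to Gm10680 ratio was 0.934 in the KO-labelled library and 0.933 in the WT-labelled library. Whether the libraries keep strand is not given in the sources used here, so reads of the 2 genes cannot be told apart. The annotation also has Gm47528 across Apoa4, Gm47544 across Apoa5 and Gm44805 across Apoc2, which are not analysed here, and Prkca across Apoh (3.99 FPKM in the KO-labelled library and 2.57 FPKM in the WT-labelled library).

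**Figure D2:**
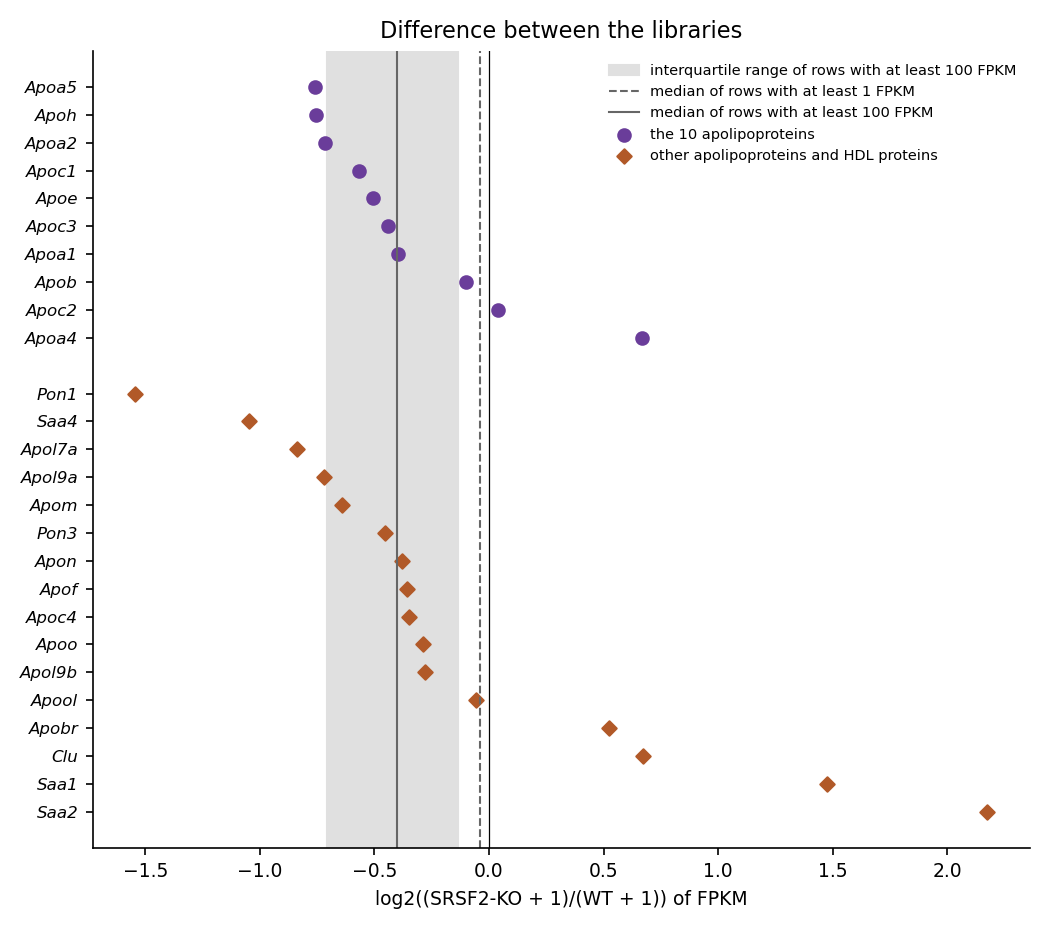
Log2 ratio, KO-labelled over WT-labelled library, for the 10 apolipoproteins (circles) and for the list of other apolipoproteins and HDL proteins (diamonds). The diamonds include Apoo, Apool, Apobr and Apol genes, so not all are plasma apolipoproteins or HDL proteins. The grey band is the interquartile range of rows that reached 100 FPKM. The solid grey line is their median (-0.40) and the dashed line the median of all measured rows (-0.04). As deposited, Apoa1, Apoc3, Apoe and Apoc1 lie in the band, Apoa2, Apoh and Apoa5 just below it and Apob, Apoc2 and Apoa4 above it; rescaling raises the KO values by 0.29 log2 units (sums made equal outside the 50 most abundant rows) or 0.35 (TPM), which puts Apob above 0.

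The order of levels was the same in both libraries. In the KO-labelled library it ran Apoa2, Apoe, Apoc1, Apoa1, Apoc3, Apoh, Apob, Apoc2, Apoa5 and Apoa4, and so it did in the WT-labelled library. The 4 most abundant genes, Apoa2, Apoe, Apoc1 and Apoa1, held 89.9% of the summed FPKM of the 10 in the KO-labelled library and 90.8% in the WT-labelled library. Apoa2, Apoc1 and Apoc3 have short coding transcripts (median lengths of 481, 432 and 489 bases), for which FPKM rest more on the length correction than for long ones such as Apob. Without replicates, no spread is available to say which neighbours in this order differ.

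Shares of the pool, which do not depend on scaling between libraries, shifted by a few percentage points at most. Apoa2 made up 27.7% of the pool in the KO-labelled library and 31.0% in the WT-labelled library, and Apoa1 made up 17.2% in the KO-labelled library and 15.4% in the WT-labelled library. Apoe (25.2% in the KO-labelled library against 24.5% in the WT-labelled library) and Apoc1 (19.7% against 19.9%) kept their shares to within 1 percentage point. Among minor members, Apob took 1.54% in the KO-labelled library against 1.12% in the WT-labelled library, and Apoc2 took 1.15% against 0.761%. Apoa4 took 0.206% in the KO-labelled library against 0.0881% in the WT-labelled library, the largest relative difference of the 10.

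**Figure D3:**
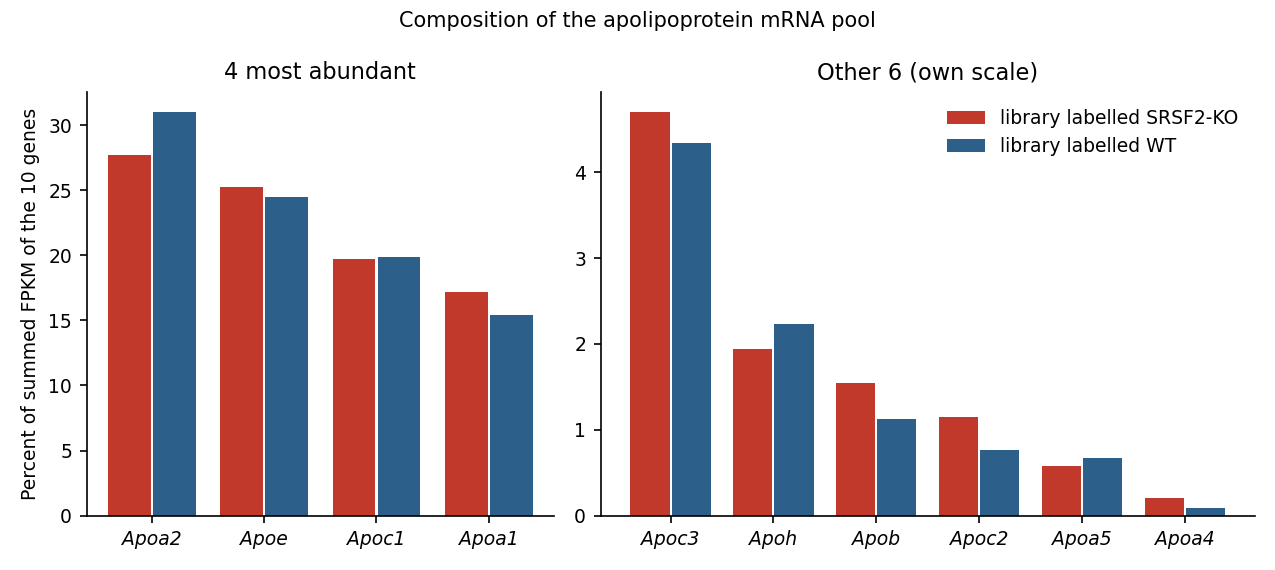
Share of each gene in the summed FPKM of the 10 apolipoproteins, in percent, in the KO-labelled (left bar) and WT-labelled (right bar) library; the right panel has its own scale. The bars of Apoc1 and Apoe differ by less than 1 percentage point, Apoa2 is lower (27.7% against 31.0%) and Apoa1 higher (17.2% against 15.4%) in the KO-labelled library.

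Genes listed as other apolipoproteins or as proteins that ride on HDL spanned a wider range than the 10. The list also holds Apoo, Apool, the receptor gene Apobr and Apol genes. Not every gene in it thus codes for a plasma apolipoprotein or an HDL protein. Apobr, at 1.15 FPKM in the KO-labelled library and 0.499 FPKM in the WT-labelled library, is among those above 0. Of 22 genes, 16 were measured, with a median of -0.35 as deposited. Of these, 12 lay below 0 and 4 above 0 as deposited (9 and 7 under TPM scaling, 6 and 10 with the median of the abundant rows set to 1). Over all measured rows, 53.9% lay below 0 as deposited. Apoc4, which lies between Apoc1 and Apoc2, stood at 1528 FPKM in the KO-labelled library and 1947 FPKM in the WT-labelled library, a log2 ratio of -0.35. The liver genes Apom, Apof and Apon had log2 ratios of -0.64, -0.36 and -0.38. Pon1, the HDL paraoxonase, was at 231 FPKM in the KO-labelled library and 675 FPKM in the WT-labelled library, and Saa4, the constitutive serum amyloid A, was at 95.7 FPKM in the KO-labelled library and 199 FPKM in the WT-labelled library. Its inducible relatives went the other way: Saa1 stood at 207 FPKM in the KO-labelled library and 73.9 FPKM in the WT-labelled library, and Saa2 had the highest log2 ratio of the list, 2.17. These Saa genes are close copies, so the split of reads between them is uncertain. Clu, which codes for apolipoprotein J, stood at 1676 FPKM in the KO-labelled library and 1051 FPKM in the WT-labelled library.

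Genes that load, edit and export apolipoprotein B were mostly lower in the KO-labelled library as deposited, though 11 of the 20 measured were higher under TPM scaling. Of 21 genes of lipoprotein assembly and secretion, 20 were measured, with a median of -0.30 (0.03 under TPM scaling). As deposited, 17 lay below 0 and 2 were at least 2-fold lower, against 53.9% and 3.22% of all measured rows. Mttp, which loads lipid onto apolipoprotein B, stood at 68.0 FPKM in the KO-labelled library and 92.3 FPKM in the WT-labelled library, and Sar1b, which is needed for export from the endoplasmic reticulum, at 138 FPKM in the KO-labelled library and 216 FPKM in the WT-labelled library. Ces1d, a lipase that mobilises triglyceride for VLDL, and Dgat2, which makes triglyceride, were lowest at log2 ratios of -1.97 and -1.11. Mouse liver edits part of its Apob mRNA to give the short form of the protein. Apobec1, the editing enzyme, was at 12.3 FPKM in the KO-labelled library and 6.30 FPKM in the WT-labelled library, whereas its partner A1cf was at 28.3 FPKM in the KO-labelled library and 48.6 FPKM in the WT-labelled library. Apobec1 and Sort1, a sorting receptor (log2 ratio 0.39), were highest. FPKM per gene say nothing of how much Apob mRNA was edited.

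Genes of plasma lipoprotein remodelling spanned a wide range. The list holds plasma lipases and their inhibitors, together with lipid transporters, lipid droplet genes, an intracellular lipase and proprotein convertases. All 20 were measured, with a median of -0.30 (0.04 under TPM scaling). As deposited, 14 lay below 0 and 6 above 0 (8 and 12 under TPM scaling), against 53.9% of all measured rows below 0. Of the 20, 3 were at least 2-fold lower and 2 at least 2-fold higher as deposited, against 3.22% and 5.49% of all measured rows. Angptl4, a fasting-induced inhibitor of lipoprotein lipase, stood at 15.1 FPKM in the KO-labelled library and 93.4 FPKM in the WT-labelled library. Lipg, which codes for endothelial lipase, stood at 4.37 FPKM in the KO-labelled library and 13.3 FPKM in the WT-labelled library. Angptl8, under its older name Gm6484, was at 119 FPKM in the KO-labelled library and 62.9 FPKM in the WT-labelled library. Lpl, lipoprotein lipase itself, had the highest log2 ratio of the list at 2.43, followed by the lipid droplet gene Cidec at 1.12. Lcat, the enzyme that Apoa1 activates, stood at 192 FPKM in the KO-labelled library and 319 FPKM in the WT-labelled library. Lpl is scarce in adult hepatocytes. Of 12 stellate cell and fibroblast markers, 11 lay above 0, with a median log2 ratio of 1.20. They summed to 221 FPKM in the KO-labelled library and 111 FPKM in the WT-labelled library. Of 16 macrophage markers, 8 lay above 0 and 8 below. The part of these or other cells in the Lpl value was not tested.

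Receptor genes were the only list of lipoprotein metabolism whose median lay above 0 as deposited. Of 14, 10 were measured, 7 of them above 0 and 3 below, with a median of 0.10 (0.43 under TPM scaling). Over all measured rows, 53.9% lay below 0 as deposited, and the median was -0.04 (0.27 under TPM scaling). Lrp1, the remnant receptor, was at 134 FPKM in the KO-labelled library and 130 FPKM in the WT-labelled library, and Scarb1, the HDL receptor, at 72.4 FPKM in the KO-labelled library and 61.98 FPKM in the WT-labelled library. Stab1 and Cd36 were highest, at log2 ratios of 1.16 and 0.32, and the ubiquitin ligase gene Mylip and the chaperone Lrpap1 were lowest at -0.73 and -0.52.

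**Figure D4:**
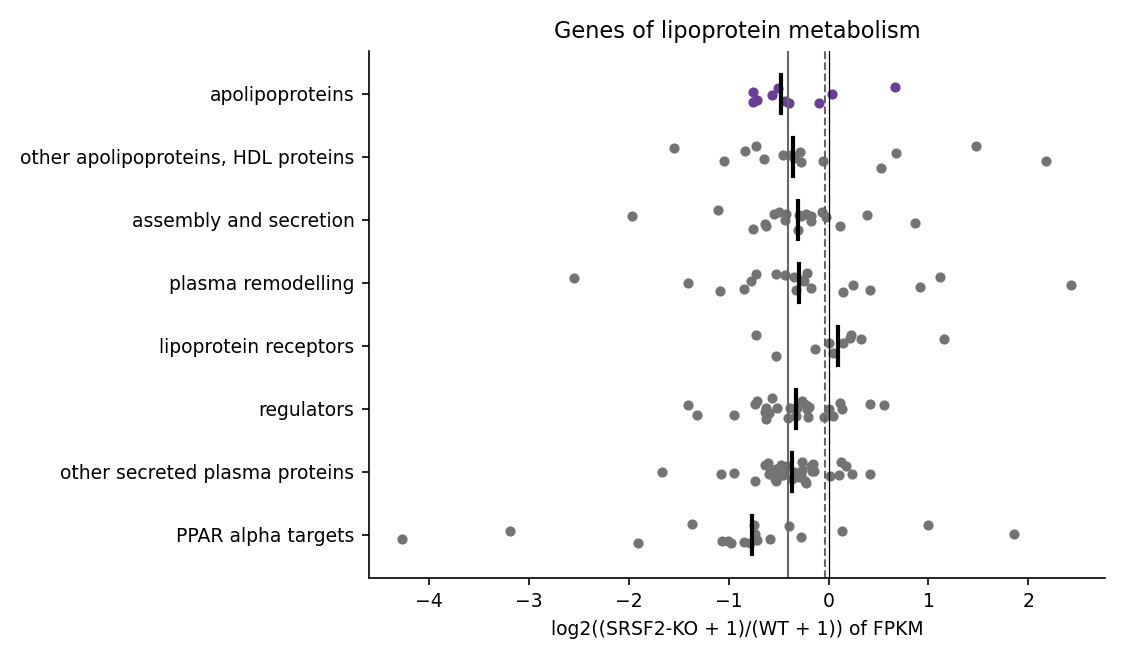
Log2 ratio, KO-labelled over WT-labelled library, of each measured gene (points) in the 10 apolipoproteins and 7 lists, with black bars at the medians; vertical lines mark 0, the median of all measured rows (dashed, -0.04) and the median of rows with at least 100 FPKM (solid grey, -0.40). As deposited, the medians of the assembly, remodelling, regulator and other plasma protein lists fall between -0.37 and -0.30 and that of the receptors at 0.10; under TPM scaling they lie between -0.02 and 0.04, and at 0.43.

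Transcription factors known to act on apolipoprotein genes were mostly lower in the KO-labelled library as deposited. Of 28, 27 were measured, with a median of -0.33. As deposited, 21 lay below 0 and 6 above 0 (14 and 13 under TPM scaling, 13 and 14 with the median of the abundant rows set to 1). Over all measured rows, 53.9% lay below 0 as deposited. Hnf4a, which binds the promoters of most liver apolipoprotein genes, stood at 100.1 FPKM in the KO-labelled library and 133 FPKM in the WT-labelled library. Ppara stood at 25.2 FPKM in the KO-labelled library and 64.4 FPKM in the WT-labelled library, and Creb3l3, an activator of Apoa4, Apoa5 and Apoc2 in mouse liver, at 69.7 FPKM in the KO-labelled library and 136 FPKM in the WT-labelled library. As deposited, Apoa4 was higher, Apoa5 lower and Apoc2 level in the KO-labelled library (Apoc2 had a log2 ratio of 0.39 under TPM scaling). Whether Creb3l3 had a part in these values was not tested. Cebpb, a regulator of acute phase genes, was lowest with a log2 ratio of -1.41, and Srebf2, the regulator of cholesterol synthesis, and the clock gene Nr1d1 were highest with 0.56 and 0.41. The PPAR alpha targets, 18 genes of which 15 lay below 0, had a median of -0.77, from -4.27 for Cyp4a14 and -3.19 for Cyp4a10 to 1.85 for Pdk4. Fgf21 was next to Pdk4 on the higher side, at 2.70 FPKM in the KO-labelled library and 0.858 FPKM in the WT-labelled library.

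Set against other proteins that the liver secretes into plasma, the apolipoproteins had a similar median as deposited, at -0.47 against -0.37 for these genes. Under TPM scaling the medians were -0.13 for the apolipoproteins and -0.02 for these genes. Of 40 such genes, 38 were measured, with 32 below 0 as deposited. That count was 20 under TPM scaling and 18 with the median of the abundant rows set to 1, where 7 and 6 of the 10 apolipoproteins lay below 0. As deposited, 84.2% of the abundant rows and 53.9% of all measured rows lay below 0. Serpina6 and Ttr were lowest, at -1.66 and -1.07, and Cp and Hp highest, at 0.41 and 0.23. Whether the medians differ was not tested.

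**Figure D5:**
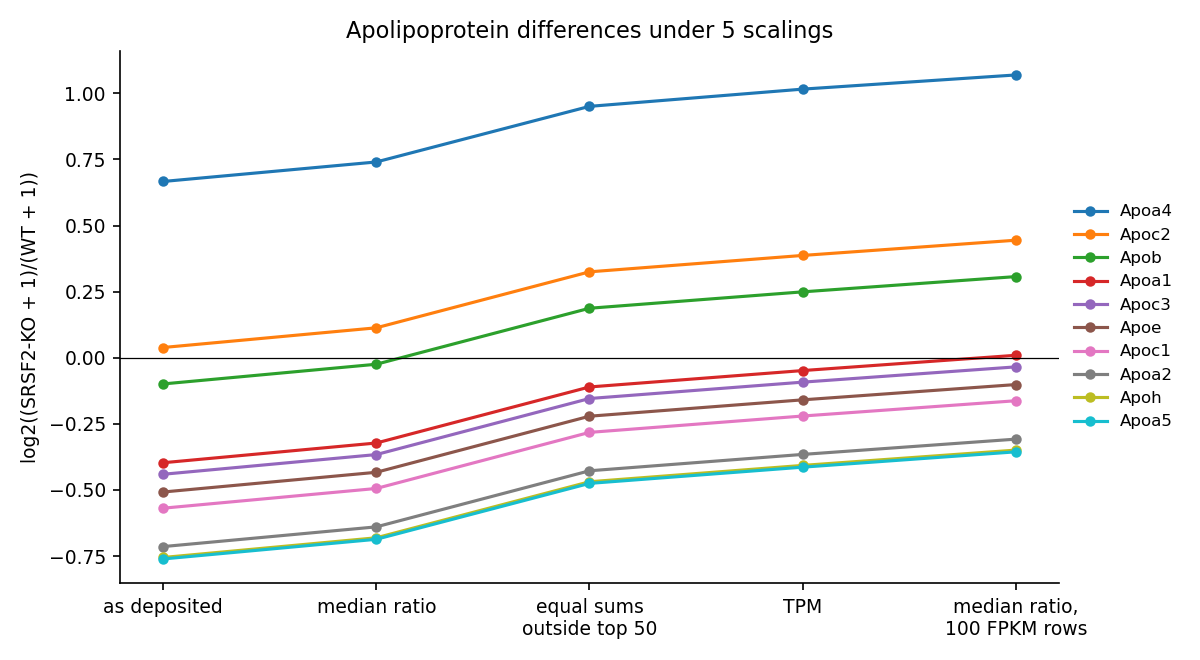
Log2 ratio, KO-labelled over WT-labelled library, of each apolipoprotein gene under 5 scalings of the libraries. Apoa4 and Apoc2 lie above 0 under all 5; Apoa2, Apoa5, Apoc1, Apoc3, Apoe and Apoh lie below 0 under all 5; Apob crosses 0 under 3 of them, and Apoa1 reaches 0.01 when the median of rows with at least 100 FPKM is set to 1.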

How the data were processed

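RNA sequencing of liver gave 1 library labelled SRSF2-KO and 1 labelled WT. The authors deposited 1 table of FPKM; per the submitters' processing notes, Bowtie 0.12.2 and mm9 were used, while the quantifier, annotation and strandedness were not given in the sources used here. Such values are already scaled for depth and length, so ratios carry an offset that depends on that scaling.

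Columns were matched to libraries by name. For a repeated symbol the row with the highest mean stood. The measure was log2((KO + 1)/(WT + 1)), among rows that reached 1 FPKM in either library; 2-fold means a log2 ratio of 1 or more, or -1 or less. Depth was fitted among 2537 genes with only 1 transcript in GENCODE M21, 1000 to 8000 bases long (offset 140 bases). The fit used their values of 0.6 to 3.4 reads, 239 in the KO-labelled library and 246 in the WT-labelled library. Of these values, 67.8% in the KO-labelled library and 76.8% in the WT-labelled library came within 0.1 reads of a whole number. Intervals used reads estimated from median coding transcript length; they cover counting error only. Of 246 listed symbols, 245 had a row, 2 of them under an older name (Gm6484 and Emr1). Named genes are the 10 members, Srsf2, genes of the 5 lipoprotein lists (always the 2 highest and 2 lowest) and the 2 highest and 2 lowest of other lists. Alb, Serpina1b, overlapping and flanking genes, and markers named for being under 1 FPKM were chosen after their values were seen. The values of 2 list members are not reported here. The members and lists were chosen with earlier results of these data known. Promoter windows came from RefSeq (GRCm38.p6); where a gene had several, the one nearest to the outermost GENCODE coding start was taken. Calculations used Python 3.11.15, pandas 2.3.3 and SciPy 1.17.1, and were tested on simulated data.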

Additional observations from a re-analysis of the deposited data

How the results depend on the processing

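With 1 library per genotype, no replicate could be left out. No paired analysis was possible because each group holds 1 library. Against the deposited values, the KO values moved up by 0.075 log2 units with the median ratio of rows expressed in both libraries set to 1, 0.29 with sums made equal outside the 50 most abundant rows, 0.35 with TPM, and 0.41 with the median ratio of rows of at least 100 FPKM set to 1, a setting chosen after seeing the data. The median of all measured rows, -0.04 as deposited, then stood at 0.02, 0.20, 0.27 and 0.31, and the median of the 10 apolipoproteins, -0.47 as deposited, at -0.40, -0.19, -0.13 and -0.068. The count of members below 0 was 8, 7, 7 and 6 under these 4, against 8 as deposited. The count at least 2-fold higher was 1 (Apoa4) with TPM and with the setting on rows of at least 100 FPKM, and 0 otherwise. Over all rows, those at least 2-fold higher numbered 627 and those at least 2-fold lower 368 as deposited. They numbered 953 and 226 with equal sums, 1222 and 227 with TPM, and 1120 and 185 with the setting on rows of at least 100 FPKM. With a pseudocount of 0.1, 1059 rows were higher and 551 lower; with a pseudocount of 3, 314 and 242; and at 5 FPKM, 366 and 301. The share on the higher side was 63.0% as deposited, 56.5% with a pseudocount of 3, 54.9% at 5 FPKM, 80.8% with equal sums, 84.3% with TPM and 85.8% with the setting on rows of at least 100 FPKM. Leaving Apoh out of the pool moved no share by more than 0.706 percentage points.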

Other observations

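Genes that flank the apolipoproteins were looked up after their values were known. Of the protein-coding genes within 50 kilobases of a member in GENCODE M21, 18 had a row and 15 were measured. Those 15 had a median log2 ratio of -0.07, with 8 below 0. Over all measured rows the median was -0.04 and 53.9% lay below 0. Beyond Apoa5 on chromosome 9, Zpr1 (as Zfp259) stood at 14.6 FPKM in the KO-labelled library and 14.4 FPKM in the WT-labelled library, and Sik3 at 11.5 FPKM in the KO-labelled library and 11.2 FPKM in the WT-labelled library. Beside Apoe on chromosome 7, Tomm40, a mitochondrial import gene, stood at 16.96 FPKM in the KO-labelled library and 17.8 FPKM in the WT-labelled library. On the same chromosome, Nectin2 (as Pvrl2) stood at 28.9 FPKM in the KO-labelled library and 15.1 FPKM in the WT-labelled library, and Relb, an NF-kappa B subunit gene, at 3.21 FPKM in the KO-labelled library and 0.657 FPKM in the WT-labelled library. Beside Apoa2 on chromosome 1, Nr1i3, the nuclear receptor CAR, stood at 30.1 FPKM in the KO-labelled library and 61.9 FPKM in the WT-labelled library, and Tomm40l at 10.5 FPKM in the KO-labelled library and 20.4 FPKM in the WT-labelled library.

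Markers of other liver cells gave these values. All 10 endothelial markers lay below 0 as deposited (9 under TPM scaling), with Oit3 and Kdr lowest (-1.71 and -1.54). They summed to 74.1 FPKM in the KO-labelled library and 143 FPKM in the WT-labelled library. Over all measured rows, 53.9% lay below 0 as deposited. Stab1, listed with the receptor genes and not among these markers, had a log2 ratio of 1.16. Bile duct markers were above 0 for 4 of the 5 measured, led by Spp1 at 266 FPKM in the KO-labelled library and 21.9 FPKM in the WT-labelled library. The keratin gene Krt19 went the other way, at 0.426 FPKM in the KO-labelled library and 1.10 FPKM in the WT-labelled library. Epcam and Krt7 were under 1 FPKM in both. Of 6 adipocyte markers, Fabp4 and Cfd were measured, both lower in the KO-labelled library, and Adipoq, Lep, Plin1 and Retn were under 1 FPKM in both.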
